A study of Mus musculus with 4 samples.

Results

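The genes described here are 10 that help set, or are used to read, whether a vessel is an artery, a vein or a lymphatic: Nrp1, Nrp2, Nr2f2, Efnb2, Ephb4, Gja4, Gja5, Sox17, Vwf and Flt4. They were chosen by name from a table of 37996 features, in which gene labels had to be placed again beside their values, and 9 of the 10 could be placed on 1 feature. Levels were compared between cells sorted by FACS from the fetal liver and cells sorted from adult bone marrow, both of C57BL/6 mice, with 2 libraries in each group. All libraries were made from total RNA of sorted primary cells with a low-input SMARTer cDNA kit. The sources used here give neither the sort markers, the fetal age nor the number of animals behind a library. Whether the 2 libraries of a group stem from different animals is not stated, and a p-value here reflects only how far these samples spread, which can be a technical spread. The series concerns a blood stem cell niche tied to portal vessels in the fetal liver. Its comparison addresses how the sorted cells of both organs differ in expression.

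Arteries and veins are set apart early in development by different gene programmes. In arteries, SOX17 and other SoxF factors act with VEGF and Notch signalling, and the products include the ligand ephrin-B2, the coreceptor neuropilin-1 and the connexins 40 and 37, encoded by Gja5 and Gja4. In veins, the nuclear receptor COUP-TFII, encoded by Nr2f2, keeps the Notch programme off, and the receptors EphB4 and neuropilin-2 mark the venous side, while VEGFR3, encoded by Flt4, and neuropilin-2 also serve lymphatic vessels. Several are also active outside endothelium: Nr2f2 and Nrp1 are also active in mesenchymal cells of many fetal organs, and von Willebrand factor is also made by megakaryocytes.

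Values per library, in normalized reads, were worked out from the group means of the authors. The libraries are called deeper and shallower within a group, and all pairs of values below are in that order. In features with means up to 10000, the fetal liver libraries held 2546089 and 868246 recovered reads, against 858720 and 223361 in the bone marrow libraries. Of all 35605 features tested, 4.12% were called higher in fetal liver and 0.129% lower, at an adjusted p-value under 0.05 from the authors. Among the 10 genes, 2 were called higher (Nrp1 and Nr2f2) and none lower in the authors' deposited table. At an unadjusted p under 0.05, 1 gene was lower in that table, Vwf, and it was also the 1 gene called lower by limma with Benjamini-Hochberg adjustment on recovered reads. The share of all features at that unadjusted threshold was not worked out, so such counts here and below have no background beside them. Limma called 19.2% of 16501 features higher and 2.87% lower, and its calls among the genes were otherwise the same. The median log2 ratio of the 9 placed genes was -0.58, against -0.19 over 30884 features with reads in both groups and 0.11 over those with a mean of at least 10 normalized reads.

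**Figure D1:**
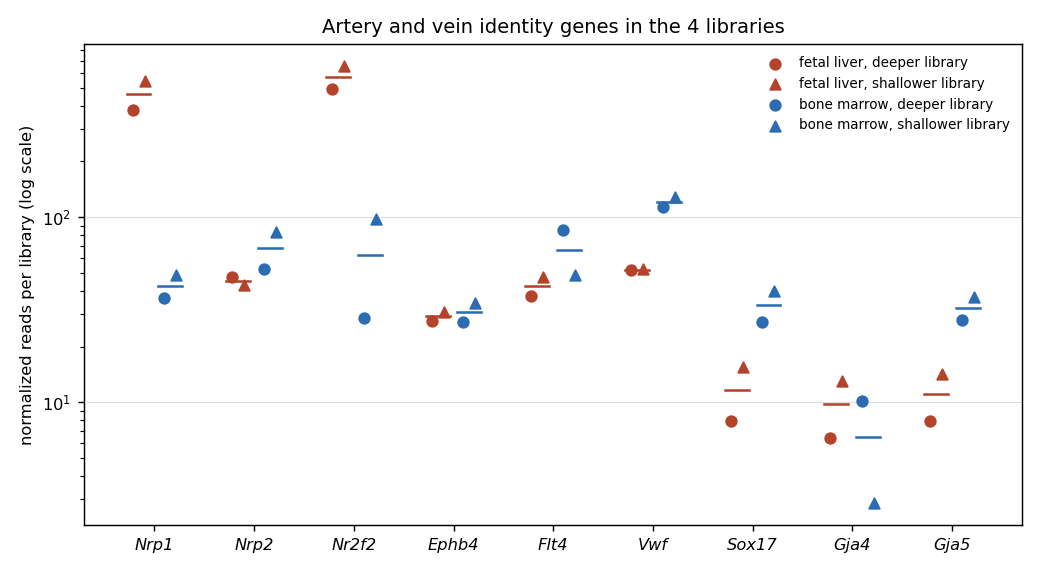
Normalized reads (log axis) of the 9 placed genes in each library, with fetal liver in red to the left of bone marrow in blue; circles are the deeper and triangles the shallower library, and short lines are the authors' group means. Nrp1 and Nr2f2 have means of 463 and 574 normalized reads in fetal liver, and the other 7 genes stay under 60 there.

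The neuropilins are coreceptors for class 3 semaphorins and for VEGF family ligands, with Nrp1 assigned to arteries and Nrp2 to veins and lymphatics. Nrp1 had 381 and 546 normalized reads in the fetal liver libraries, against 36.5 and 48.6 in the bone marrow libraries. The fetal liver values were far above those of bone marrow in both libraries. The difference was 10.9-fold in the authors' deposited table (their adjusted p = 5.91e-08), and the limma log2 fold change was 3.41 ± 0.44 (SE, 2 libraries per group; Benjamini-Hochberg adjusted p = 6.38e-05). In these bulk samples a different number of cells of a type and a different amount of RNA per cell cannot be told apart. The feature of Nrp1 depends on how labels are placed: with another score the label was spread over 6 candidate features, 8.14-fold to 31.0-fold higher in fetal liver, all called higher in the authors' deposited table. Nrp2 had 47.7 and 42.8 normalized reads in fetal liver, against 52.7 and 82.9 in bone marrow. The fetal liver libraries were the lower ones without overlap, but the difference did not pass either test. Its ratio was 0.668 in the authors' deposited table (their adjusted p = 1). By limma the log2 fold change was -0.54 ± 0.41 (SE, 2 libraries per group; Benjamini-Hochberg adjusted p = 0.357).

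The balance of the 2 neuropilins within a library does not depend on how libraries were scaled to each other. Per kilobase of exon, Nrp1 stood at 9.66 and 15.4 times Nrp2 in the fetal liver libraries, against 0.838 and 0.709 times in the bone marrow libraries. Nrp1 was thus the higher neuropilin in both fetal liver libraries and the lower one in both bone marrow libraries, at the feature where its label was placed. The mean log2 of this ratio was 3.61 in fetal liver and -0.38 in bone marrow, and an exact two-sided permutation test gave p = 0.333, the smallest value that 2 against 2 libraries allow. Of 20 genes of neuropilin ligands and coreceptors, 17 were placed, with a ratio above 1 for 10 and below it for 7. By the authors' adjusted p-value 1 was called higher and none lower, and limma called 3 higher and 1 lower. The gene called by the authors' adjusted p-value was Figf, which encodes VEGF-D, with 53.4 and 84.4 normalized reads in fetal liver, against 6.08 and 0 in bone marrow. The gene called lower by limma was the class 3 semaphorin gene Sema3b, chosen after its values were seen. It had 12.1 and 5.95 normalized reads in fetal liver, against 43.2 and 37.2 in bone marrow (limma with Benjamini-Hochberg adjusted p = 0.0136). The ligand gene Vegfa, chosen after its values were seen, had 74.6 and 70.2 normalized reads in fetal liver, against 20.3 and 17.2 in bone marrow, a ratio of 3.87 in the authors' deposited table that did not pass (their adjusted p = 0.139) but passed in limma (Benjamini-Hochberg adjusted p = 0.00363). The plexin genes Plxna1 and Plxna2, whose products signal with neuropilins, overlapped between the groups, with 72.4 and 102 normalized reads of Plxna1 in fetal liver, against 91.9 and 54.3 in bone marrow.

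Nr2f2, the venous transcription factor gene, had 491 and 656 normalized reads in fetal liver, against 28.4 and 97.2 in bone marrow. The groups did not overlap, while the 2 bone marrow libraries stood over 3 times apart. The ratio of means was 9.14 in the authors' deposited table (their adjusted p = 0.0231), and the limma log2 fold change was 3.40 ± 0.55 (SE, 2 libraries per group; Benjamini-Hochberg adjusted p = 0.000387). The size rests on the bone marrow libraries: it was 5.90-fold without the deeper one and 20.2-fold without the shallower one. Nr2f2 shares part of its locus on chromosome 7 with B130024G19Rik, a noncoding gene on the opposite strand in GENCODE M21. The sources used here do not state whether reads were counted by strand, so reads from any shared exons cannot be told apart. Overlap was taken from whole gene spans, and whether exons are shared was not checked. The same holds for Nrp2, Ephb4, Sox17 and Gja5, which overlap genes on the opposite strand. Its close relative Nr2f1, which encodes COUP-TFI, was also called higher, with 111 and 84.4 normalized reads in fetal liver, against 14.9 and 20.02 in bone marrow. Its ratio was 5.60 in the authors' deposited table (their adjusted p = 0.00450). The third COUP-TF gene, Nr2f6, overlapped between groups, with 42.1 and 40.4 normalized reads in fetal liver, against 19.6 and 45.7 in bone marrow.

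The promoters of the 2 called genes are shown to set side by side the sequence just upstream of the genes that were higher together. Each is 250 bases directly before the gene start, from RefSeq on GRCm38.p6, written 5′ to 3′ on the strand of the gene. The authors' build is mm9, so these positions are not those of the authors' alignment. Nrp1 lies at chr8:128358823-128359072 on the plus strand and Nr2f2 at chr7:70366747-70366996 on the minus strand. Capitals mark matches to 4 motifs on either strand, chosen with these sequences in view.
Nrp1: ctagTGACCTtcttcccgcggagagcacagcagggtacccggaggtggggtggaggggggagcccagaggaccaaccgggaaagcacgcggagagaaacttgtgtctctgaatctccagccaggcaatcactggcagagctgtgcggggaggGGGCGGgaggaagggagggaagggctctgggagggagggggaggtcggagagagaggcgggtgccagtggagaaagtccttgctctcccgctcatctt
Nr2f2: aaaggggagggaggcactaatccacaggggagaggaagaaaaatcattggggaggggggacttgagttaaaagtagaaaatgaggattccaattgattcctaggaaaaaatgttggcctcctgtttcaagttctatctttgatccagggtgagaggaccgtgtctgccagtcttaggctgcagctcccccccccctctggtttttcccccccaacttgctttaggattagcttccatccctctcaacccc
The motifs were the nuclear receptor motif AGGTCA, of the kind COUP-TF proteins bind, the RBPJ core TGGGAA, the SOX core AACAAT and the GC box GGGCGG. The Nrp1 window held 2 matches: a nuclear receptor motif read as TGACCT, starting at base -246 from the gene start, and a GC box at -98. The Nr2f2 window held 0 matches. Among 32851 promoter windows of the same length, 14.0% held the nuclear receptor motif, 21.6% the RBPJ core, 9.42% the SOX core and 32.7% the GC box. A match describes letters and is no measured site.

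EphB4 on veins and ephrin-B2 on arteries form a receptor and ligand pair that keeps the vessel types apart. Ephb4 had 27.7 and 30.9 normalized reads in fetal liver, against 27.0 and 34.3 in bone marrow. The bone marrow libraries lay on both sides of the fetal liver libraries. The ratio was 0.955 in the authors' deposited table (their adjusted p = 1), and the limma log2 fold change was -0.06 ± 0.45 (SE, 2 libraries per group; Benjamini-Hochberg adjusted p = 0.940). Efnb2 was not placed and is treated as not measured. Of 8 other genes of B-class ephrins and Eph receptors, 7 were placed and 1 was called higher, none lower. This was Efnb1, a further transmembrane ephrin, with 66.3 and 54.7 normalized reads in fetal liver, against 7.43 and 11.4 in bone marrow, a ratio of 6.41 in the authors' deposited table (their adjusted p = 0.0127). The receptor genes Ephb2 and Ephb3 did not pass. Ephb2 had 63.3 and 55.9 normalized reads in fetal liver, against 58.1 and 42.9 in bone marrow, and Ephb3 had 41.7 and 32.1 in fetal liver, against 63.5 and 42.9 in bone marrow.

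VEGFR3, the product of Flt4, is the receptor for VEGF-C and VEGF-D and is found on lymphatic, venous and sinusoidal endothelium. Flt4 had 37.5 and 47.6 normalized reads in fetal liver, against 85.1 and 48.6 in bone marrow. The fetal liver libraries were lower, with the shallower library of each group close to the other. The ratio was 0.636 in the authors' deposited table (their adjusted p = 0.685), and the limma log2 fold change was -0.60 ± 0.42 (SE, 2 libraries per group; Benjamini-Hochberg adjusted p = 0.322). The genes of its ligands stood the other way. Figf was higher, as given above, and Vegfc had 57.6 and 42.8 normalized reads in fetal liver, against 9.46 and 17.2 in bone marrow, which passed in limma (Benjamini-Hochberg adjusted p = 0.0123) and not in the authors' deposited table (their adjusted p = 0.0998).

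Sox17 encodes the SoxF factor most closely tied to arteries. It had 7.96 and 15.5 normalized reads in fetal liver, against 27.0 and 40.0 in bone marrow. The groups did not overlap, with fetal liver lower. The ratio was 0.349 in the authors' deposited table (their adjusted p = 0.615), and the limma log2 fold change of -1.48 ± 0.56 (SE, 2 libraries per group) did not pass (Benjamini-Hochberg adjusted p = 0.0716). It passed in limma without the shallower fetal liver library (Benjamini-Hochberg adjusted p = 0.0407) but in none of the other 3 such fits (0.116 to 0.381), and its log2 fold change ranged over -1.92 to -1.04. Within a library, Nr2f2 stood at 34.2 and 23.5 times Sox17 per kilobase in fetal liver, against 0.581 and 1.34 times in bone marrow. Nr2f2 was therefore well above Sox17 in both fetal liver libraries, and the 2 were close in bone marrow. Sox17 rested on 21 and 13 reads in fetal liver, against 40 and 14 in bone marrow. An exact two-sided permutation test on the log2 of this ratio gave p = 0.333, the smallest value that 2 against 2 libraries allow. Nr2f2 is also active in mesenchymal cells, and whether the ratio reflects venous against arterial endothelium was not tested. The other SoxF genes Sox7 and Sox18 were not placed.

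The gap junction proteins connexin 37 and connexin 40 couple arterial endothelial cells. Gja4 had 6.44 and 13.1 normalized reads in fetal liver, against 10.1 and 2.86 in bone marrow, where the last value is 1 read. The groups overlapped. The mean was under the minimum of 10 for limma, and the ratio of 1.502 did not pass in the authors' deposited table (their adjusted p = 1). Gja5 had 7.96 and 14.3 normalized reads in fetal liver, against 27.7 and 37.2 in bone marrow. The groups did not overlap, and fetal liver was lower. The ratio was 0.343 in the authors' deposited table (their adjusted p = 0.582), and the limma log2 fold change was -1.50 ± 0.56 (SE, 2 libraries per group; Benjamini-Hochberg adjusted p = 0.0680). It passed in limma without the shallower fetal liver library (Benjamini-Hochberg adjusted p = 0.0447) but in none of the other 3 such fits (0.145 to 0.349), with log2 fold changes of -1.89 to -1.12 over the 4 fits. Of 16 other connexin and pannexin genes, 11 were placed and none was called in the authors' deposited table, where 1 was higher and 1 lower at an unadjusted p under 0.05. Limma called 1 higher and none lower. That 1 was Gjc1, the connexin 45 gene, with 108 and 66.6 normalized reads in fetal liver, against 27.0 and 22.9 in bone marrow (limma with Benjamini-Hochberg adjusted p = 0.00696). Gja1, the connexin 43 gene, had 31.5 and 63.0 normalized reads in fetal liver, against 31.1 and 183 in bone marrow, so its level in bone marrow came from 1 library.

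The Notch pathway drives the arterial programme, and 9 of its 14 listed genes were placed. Jag1, a ligand gene, was called higher, with 176 and 297 normalized reads in fetal liver, against 58.1 and 74.3 in bone marrow (their adjusted p = 0.0215 in the authors' deposited table). Heyl, a Notch target gene used as a mural cell marker, was called lower, with 2.27 and 0 normalized reads in fetal liver, against 27.7 and 17.2 in bone marrow (their adjusted p = 0.0407 in the authors' deposited table), but not by limma (Benjamini-Hochberg adjusted p = 0.0589). As the labels stand in that table, Heyl is not called lower. The arterial ligand gene Dll4 had 8.34 and 14.3 normalized reads in fetal liver, against 43.2 and 28.6 in bone marrow. It was chosen after its values were seen, and it was lower in limma (Benjamini-Hochberg adjusted p = 0.0479) and not called in the authors' deposited table (their adjusted p = 0.215). The receptor gene Notch1 was close in all libraries, with 177 and 172 normalized reads in fetal liver, against 176 and 140 in bone marrow.

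Von Willebrand factor is the large adhesive protein that endothelium, most of all venous, and megakaryocytes store and that captures platelets. Vwf had 51.9 and 52.3 normalized reads in fetal liver, against 113.5 and 128.7 in bone marrow. Libraries within a group were close, and the groups stood apart with fetal liver lower. The ratio was 0.430 in the authors' deposited table, where it did not pass (their adjusted p = 0.439), and the limma log2 fold change of -1.20 ± 0.39 (SE, 2 libraries per group) did (Benjamini-Hochberg adjusted p = 0.0366). The limma call was lost without the deeper fetal liver library (Benjamini-Hochberg adjusted p = 0.164), without the shallower one (0.163), without the shallower bone marrow library (0.0542) and with no filter on low values (0.0784). Of 9 genes for partners of von Willebrand factor, 7 were placed and none was called in the authors' deposited table, nor at an unadjusted p under 0.05. Their median log2 ratio was -0.99, and limma called 1 lower. This was Itga2b, a platelet integrin gene, with 14.0 and 32.1 normalized reads in fetal liver, against 45.3 and 88.6 in bone marrow (limma with Benjamini-Hochberg adjusted p = 0.0353). Of 12 megakaryocyte and platelet genes, 11 were placed, and their summed level was 97.0 and 180 normalized reads in fetal liver, against 198 and 237 in bone marrow. None of them was called in the authors' deposited table, 9 lay lower in fetal liver and 2 higher. The 2 were the platelet chemokine genes Pf4, with 9.09 and 34.5 normalized reads in fetal liver, against 2.03 and 2.86 in bone marrow, and Ppbp, with 8.34 and 8.32 in fetal liver, against 2.70 and 2.86 in bone marrow, both chosen after their values were seen. The part of these markers in the difference of Vwf was not tested.

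**Figure D2:**
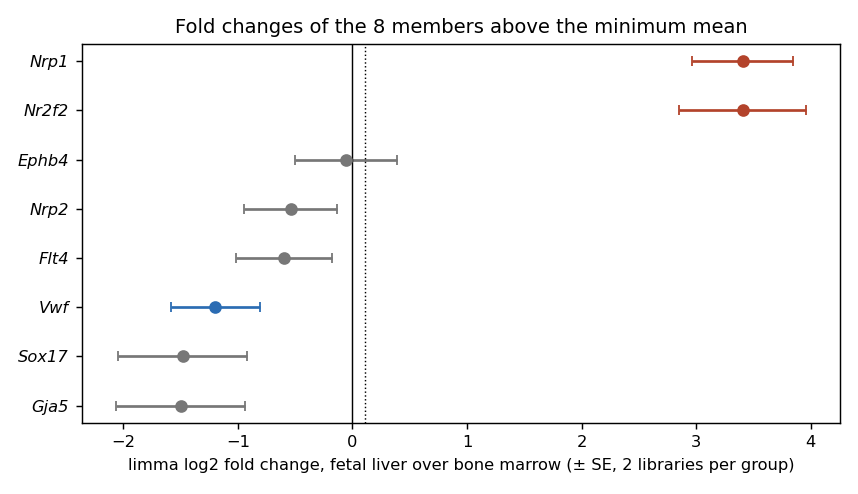
Limma log2 fold change of fetal liver over bone marrow with its standard error (2 libraries per group) for the 8 genes with a mean of at least 10 normalized reads. Red marks genes called higher, blue lower and grey not called, and the dotted line is the median of all features tested (0.11); Nrp1 and Nr2f2 lie near 3.4 and the other 6 at or below 0.

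In all, 2 of the 9 placed genes had both fetal liver libraries above those of bone marrow, 5 had them below and 2 overlapped. Over all features with a mean of at least 10 normalized reads, they lay above for 37.3% and below for 26.4%. Levels can be ordered across genes per kilobase of exon, with the length taken over the joined exons of all annotated transcripts. The transcripts in use may be shorter, so the order is approximate. In fetal liver the mean was 66.5 normalized reads per kilobase for Nr2f2 and 47.4 for Nrp1. The other 7 genes followed at 1.93 to 6.31, in the order Ephb4, Gja4, Flt4, Nrp2, Vwf, Sox17 and Gja5. Nr2f2 and Nrp1 did not overlap each other between libraries (57.0 and 76.1 for Nr2f2, 39.0 and 55.8 for Nrp1), and no library of another gene was above 7.76. Gja4, with libraries at 3.82 and 7.76 per kilobase, overlapped Ephb4, Flt4 and Nrp2, and Sox17 overlapped both Vwf and Gja5. In bone marrow all 9 genes lay within 3.86 to 8.12 normalized reads per kilobase on average, with Flt4, Vwf and Nr2f2 first and Nrp2, Gja5, Nrp1 and Gja4 last. The libraries of Nr2f2 there, at 3.29 and 11.3 per kilobase, spanned nearly the whole order, and neighbours in it did not differ beyond their spread.

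Genes of the olfactory receptor family, which nonolfactory cells are not known to use widely, gave a measure of reads at low genes, chosen after the data were seen. Of 885 such genes, 342 were placed, with a median of 0.795 normalized reads per kilobase in fetal liver and 1.52 in bone marrow. The start of the gene symbol, which these genes share, was among the predictors that placed labels by level and direction. Their levels and ratios can therefore be set in part by the placement. Their summed level was 1000 and 974 normalized reads in the fetal liver libraries, against 1902 and 1504 in the bone marrow libraries, a ratio of sums of 0.579. None was called in the authors' deposited table, where 13 were lower and 0 higher at an unadjusted p under 0.05. Nrp1 and Nr2f2 stood above all 342 of them in fetal liver, while Gja5 stood above 86.3% and Sox17 above 90.1%. In bone marrow Nrp1 was above 89.8%, Gja4 above 84.8% and the other 7 genes above 95.03% to 99.1%. Of the 9 placed genes, 6 had a ratio below 1 in the authors' deposited table, the direction of this family's median ratio, 0.520, and 3 above it. The 6 were Gja5 (0.343), Sox17 (0.349), Vwf (0.430), Flt4 (0.636), Nrp2 (0.668) and Ephb4 (0.955). The family's median can itself be set in part by the placement, and its part in these ratios was not tested.

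**Figure D3:**
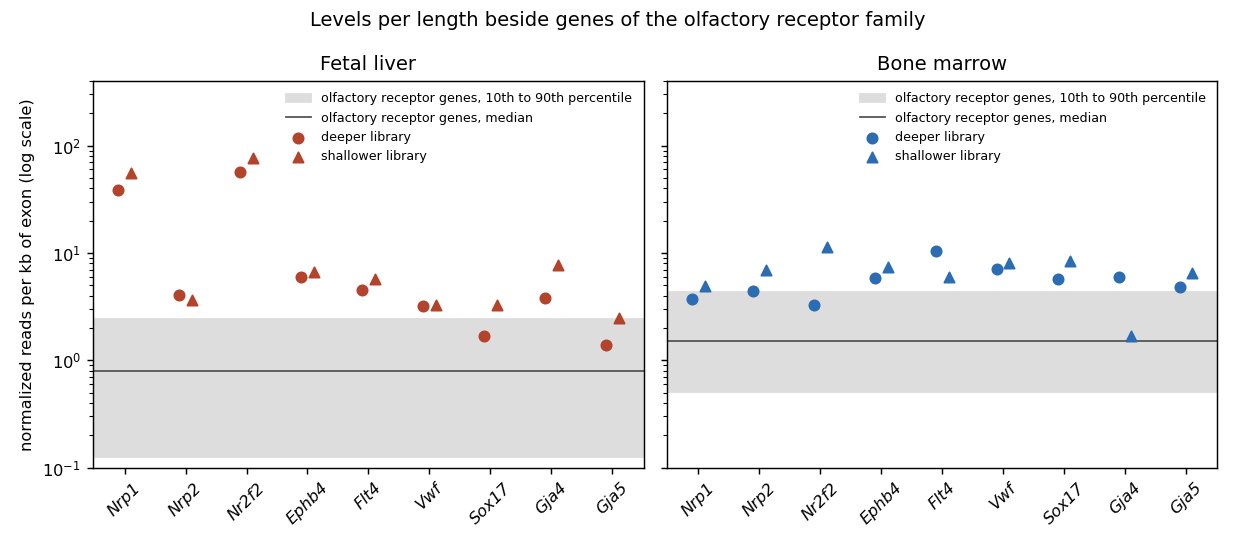
Normalized reads per kilobase of exon (log axis) of the 9 genes in the fetal liver libraries (left panel) and the bone marrow libraries (right panel); circles are the deeper and triangles the shallower library, the grey band spans the 10th to the 90th percentile of 342 olfactory receptor genes and the line is their median. In fetal liver Nrp1 and Nr2f2 stand far above the band and both libraries of Gja5 lie in it or at its edge, and in bone marrow all libraries lie in the band or above it, at most at 11.3.

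Markers of the cell types that could carry these genes are given beside them. Pan-endothelial genes, of which 13 of 20 were placed, summed to 437 and 392 normalized reads in fetal liver, against 420 and 340 in bone marrow, so the groups overlapped. None was called in the authors' deposited table, with Tie1 undecided, 1 was higher at an unadjusted p under 0.05, and limma called 1 higher and none lower. The gene was Emcn in each case, also in the venous list, with 136 and 63.0 normalized reads in fetal liver, against 24.3 and 25.7 in bone marrow. Of the 13 placed genes, 5 had a ratio above 1 and 8 below it, with a median log2 ratio of -0.41. Cdh5, which encodes VE-cadherin of endothelial junctions, had 44.3 and 35.7 normalized reads in fetal liver, against 23.0 and 14.3 in bone marrow, whereas Pecam1, another endothelial junction gene, had 12.9 and 4.76 in fetal liver, against 32.4 and 25.7 in bone marrow. Neither passed the authors' adjusted p-value, and both were chosen after their values were seen. Of 22 other arterial genes 15 were placed, with 1 called higher, Jag1, and a median log2 ratio of -0.43; of 17 venous genes 14 were placed, with 1 called higher, Nr2f1, and a median of 0.09. Of 10 lymphatic genes 7 were placed, with 1 called higher, Figf, and a median of 0.89. The ratio was above 1 for Figf, Vegfc, Reln and Foxc2 and below 1 for Prox1, Lyve1 and Mmrn1. Of 10 sinusoidal genes 8 were placed, with none called, 1 higher and 2 lower at an unadjusted p under 0.05, and a median of -0.70. With labels as they stand, the arterial median was 0.34, the sinusoidal one 1.25 and the pan-endothelial one 1.08, so these signs depend on the placement. Limma called 2 arterial genes higher and 2 lower, 2 venous genes higher, 3 lymphatic genes higher, and 1 sinusoidal gene higher and 2 lower.

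Some mural and mesenchymal markers were higher in fetal liver, as Nrp1 and Nr2f2 were. Of 14 pericyte and mural genes, 12 were placed, 5 were called higher and 1, Heyl, lower, while 8 of the placed genes had a ratio above 1 and 4 below it. Their summed level was 1615 and 3369 normalized reads in fetal liver, against 298 and 337 in bone marrow. Most of the shallower fetal liver sum was Acta2 and Tagln. Acta2 had 267 and 1578 normalized reads in fetal liver, against 8.78 and 34.3 in bone marrow. Tagln had 149 and 688 in fetal liver, against 10.1 and 8.58 in bone marrow. Acta2 was not called in the authors' deposited table (their adjusted p = 0.121). Rgs5, a pericyte signalling regulator gene, had 255 and 201 normalized reads in fetal liver, against 11.5 and 11.4 in bone marrow. Of 14 mesenchymal genes 5 were called higher, among them Col3a1, called without being placed on 1 feature. The 13 placed genes, of which 10 had a ratio above 1 and 3 below it, summed to 6951 and 15936 normalized reads in fetal liver, against 1458 and 14909 in bone marrow, the last of which overlaps fetal liver. Most of that last sum was Col1a1 and Col1a2, the type I collagen genes. Of 9 hepatoblast genes 4 were called higher, with Dlk1 called without being placed on 1 feature, and including Alb, the albumin gene, with 220 and 268 normalized reads in fetal liver, against 11.5 and 11.4 in bone marrow. Of the 7 placed, 5 had a ratio above 1 and 2 below it, Hnf4a and Krt8 (0.735 and 0.769 in the authors' deposited table). Of 10 neutrophil and myeloid genes 1 was called lower, S100a9, with 2.27 and 1.19 normalized reads in fetal liver, against 118 and 34.3 in bone marrow. Of 8 erythroid and 6 leukocyte genes none was called in the authors' deposited table, also at an unadjusted p under 0.05, or by limma. The part of any of these cell types in the levels of Nrp1 and Nr2f2 was not tested.

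**Figure D4:**
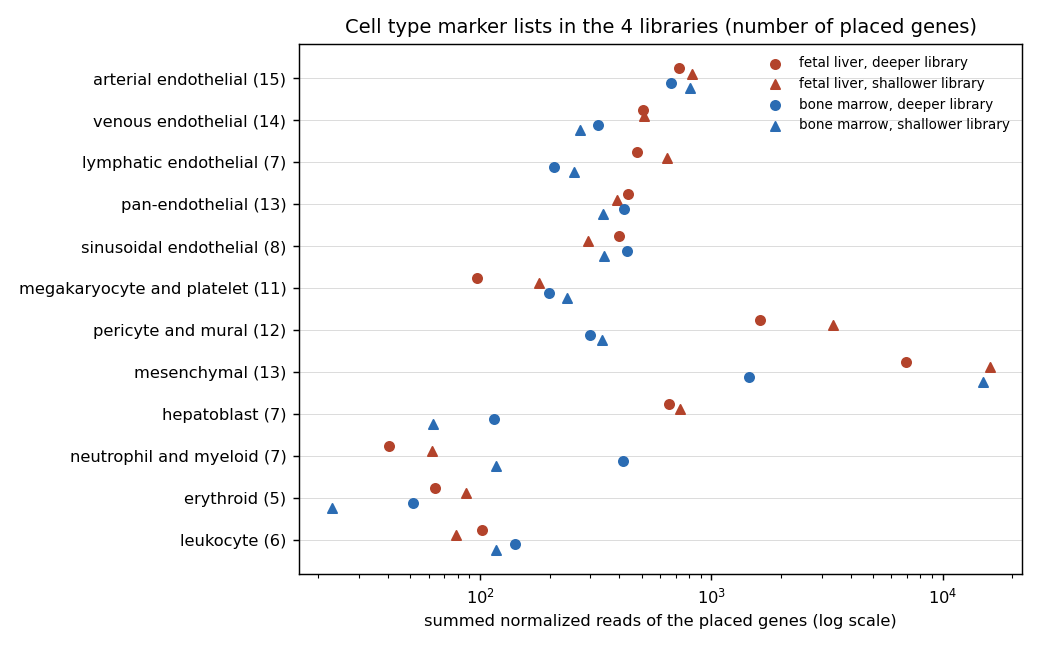
Summed normalized reads (log axis) of the placed genes of 12 cell type marker lists in each library, with fetal liver in red above bone marrow in blue in each line; circles are the deeper and triangles the shallower library, and numbers in brackets are placed genes. Pericyte and hepatoblast sums are higher in both fetal liver libraries, while pan-endothelial sums overlap.

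Of 147 placed genes of the other lists, Cxcl12 (distance 0.873) and Abcc9 (0.998) were nearest to Nrp1, at the feature where its label was placed. Distance was Euclidean over the 4 libraries of log2(normalized reads + 1). Values were not centred per gene, so the distance counts level as well as the difference between groups. The same 2 genes were nearest to Nr2f2, at 1.79 and 1.81. Only listed genes were searched, and the lists were chosen with earlier results of these data known. Cxcl12, a chemokine gene for stem cell retention, had 265 and 369 normalized reads in fetal liver, against 48.6 and 45.7 in bone marrow. Abcc9, a potassium channel subunit gene used as a pericyte marker, had 274 and 307 normalized reads in fetal liver, against 31.1 and 42.9 in bone marrow. Both were higher in both fetal liver libraries and called in the authors' deposited table (their adjusted p = 0.000122 for Cxcl12 and 7.33e-06 for Abcc9). Nr2f2 itself stood at 1.46 and 1.36 times Nrp1 per kilobase in fetal liver, against 0.882 and 2.27 times in bone marrow, so this ratio overlapped between the groups.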

How the data were processed

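The submitters' processing notes name GSNAP, HTSeq, DESeq and the build mm9, without versions. The authors deposited 1 table of their comparison, which holds the authors' mean normalized read signal per group, the ratio (fold) of the means and p-values, per the file headers. The genes and lists were chosen with earlier results of these data known.

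Gene labels stand closed up above 4531 features without a label. They were placed again by a hidden Markov model that kept label order and used identifier order among equal p-values (error 0.001). With LightGBM 4.6.0 it scored each label against a feature's level and its direction between the groups. The predictors included gene structure (GENCODE M21, GRCm38), RefSeq and promoter traits, the identifier number and the start of the gene symbol. The direction read for a placed gene was thus part of what placed it. Of 32237 labels of tested features, 19260 (59.7%) reached a posterior of 0.95, the minimum for printing a value. A call was counted where the posterior of a label, summed over all features called in 1 direction, reached that minimum, which does not need a single feature. Values credited to the authors' deposited table are read at the feature to which a label was assigned. In a simulation, 99.6% of 20097 placements were right, an upper estimate.

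Whole reads per library were solved from each mean, with 1 read worth 0.379 and 1.19 normalized reads in fetal liver, against 0.676 and 2.86 in bone marrow. They were tested with limma 3.58.1 in R 4.3.3 (mean-variance trend, log2(normalized reads + 1), Benjamini-Hochberg adjustment over the 16501 features whose mean reached 10). On simulated data limma called 8%, 66%, 92% and 100% of 50 genes changed 2, 4, 8 and 16-fold in this comparison of 16501 features. The planned count test was not run, as the table holds no counts per library. Named genes were all members, up to 4 called genes per direction and list with the largest ratio, up to 3 uncalled with the highest level, and the 2 nearest genes per called member.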

Additional observations from a re-analysis of the deposited data

How the results depend on the processing

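The authors' adjusted p-value gave 2 members called higher under every alternative tried: readjustment over features whose mean reached 10, limma, a posterior of 0.99, labels left where they stand, and a placement score with level bins over all features, added after seeing the data, under which Nrp1 had a posterior of 0.386 on its leading feature and its candidates were all called higher. The alternatives for label placement could hardly change the count of 2, as features stand in order of p-value and called ones come first. The labels of Nrp1 and Nr2f2 stood at rows 77 and 1193, and their features at rows 81 and 1215. Under the score used for the results, both had a posterior above 0.99, so the 0.99 setting could not change it. Members called lower were 0, except 1 with limma. Limma itself called 1 member lower, 0 with no filter on low values, 0 to 2 with 1 library left out, and 3 with libraries centred on their median, an alternative chosen after seeing the data that moved the median log2 fold change of all features from 0.11 to -0.13. The 3 were Vwf, Gja5 and Sox17. Limma called 2 members higher in each of these fits. Of 123 other settings of single members' values, 4 changed sign: the limma log2 fold change of Ephb4, which ranged over -0.22 to 0.11 with 1 library left out and was above 0 in 2 of 4 such fits (0.02 and 0.11), and, with labels as they stand, the log2 ratios of Gja4 at -0.59 and Vwf at 1.53. With labels as they stand, calls in lists changed for pan-endothelial genes (1 higher), pericyte genes (6 higher, 0 lower), neutrophil genes (1 higher, 0 lower) and Notch genes (2 higher, 0 lower). The medians of 7 of 18 lists changed sign with labels as they stand. The cause of these changes was not tested. Leaving out a library leaves 1 in its group, which is then assumed to vary like the other group. No paired analysis was possible because the recovered libraries carry no replicate numbers. Depth limits Gja4 most, with 17 and 11 reads in fetal liver, against 15 and 1 in bone marrow; recovered reads without molecular identifiers are not independent molecules.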
